A study of Mus musculus with 12 samples.

Results

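The CXCR3 chemokine axis was followed through 5 genes in MC38 tumors, Cxcl9, Cxcl10, Cxcl16, Cxcr3 and Cxcr6. They were taken by gene symbol from the expression table, where all 5 were present among 18211 genes, and all 5 passed the filter on low counts that left 13563 genes for testing. MC38 is a mouse colorectal adenocarcinoma line, here grown under the skin of female C57BL/6 mice that were 5 weeks old at purchase, and RNA was taken from whole tumors. The CK group received vehicle, the PB-020 group an oral IGF-1R inhibitor (the receptor for an insulin-like growth factor) at 50 mg/kg each day, the anti-PD-1 group 200 μg of a blocking antibody per mouse on days 9, 12, 15 and 18 after the cells, and the last group, PB-020/anti-PD-1, called the combination here, both agents. Treatment groups were drawn at random on day 7, and each contributed 3 tumors. The labels do not say how the mice of one group were related, so every p-value refers to the spread between these 12 tumors.

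Chemokines are small secreted proteins that direct the movement of leukocytes along a gradient. CXCL9 and CXCL10 are released by macrophages, dendritic cells and other cells after exposure to interferon gamma, and both bind CXCR3, a receptor carried mainly by activated effector T cells and NK cells. CXCL16 binds a different receptor, CXCR6, and exists both as a membrane-anchored and as a shed protein. CXCR6 marks effector and tissue-resident T cells as well as NKT cells. The 5 genes therefore form a pair of ligand and receptor systems, and the name CXCR3 axis fits only Cxcl9, Cxcl10 and Cxcr3 among them.

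On the assembly GRCm38.p6, Cxcl9 (gene 17329) lies on the minus strand of chromosome 5 from 92321331 to 92328079 and Cxcl10 (gene 15945) on the same strand from 92346638 to 92348889. The 2 genes are thus neighbors, with 18558 bases between them. Cxcl16 (gene 66102) lies on the minus strand of chromosome 11 from 70454389 to 70459984, Cxcr3 (gene 12766) on the minus strand of chromosome X from 101731535 to 101734147 and Cxcr6 (gene 80901) on the plus strand of chromosome 9 from 123806477 to 123811754. Promoter sequence from RefSeq was matched for 4 of the 5 genes, with no entry for Cxcl16. The 250 bases before the start of Cxcl9 (chr5:92328080-92328329, minus strand) and Cxcl10 (chr5:92348890-92349139, minus strand) are shown because these neighbors encode the interferon-induced ligands of CXCR3 in the table. Capitals mark matches to the motifs searched.
Cxcl9: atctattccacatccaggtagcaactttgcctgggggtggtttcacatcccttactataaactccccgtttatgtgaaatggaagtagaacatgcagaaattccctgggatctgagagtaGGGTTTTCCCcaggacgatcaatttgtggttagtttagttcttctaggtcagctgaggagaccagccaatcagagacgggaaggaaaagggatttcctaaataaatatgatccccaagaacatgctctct
Cxcl10: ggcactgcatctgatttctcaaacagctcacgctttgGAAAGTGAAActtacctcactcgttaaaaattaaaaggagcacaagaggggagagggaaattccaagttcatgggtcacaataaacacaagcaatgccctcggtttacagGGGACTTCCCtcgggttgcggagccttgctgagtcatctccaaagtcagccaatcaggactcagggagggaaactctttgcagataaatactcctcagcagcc

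Searched on both strands were GAAANNGAAA, a form of the interferon-stimulated response element, TTCNNNGAA, a form of the gamma-activated site, GGGNNTTNCC, a form of the NF-kB site, and AGGTGTGA, a T-box site of the kind T-bet binds. The Cxcl10 window held the response element GAAAGTGAAA from −213 to −204 relative to the start and the NF-kB form GGGACTTCCC from −103 to −94. The Cxcl9 window held the NF-kB form GGGTTTTCCC from −130 to −121. The Cxcr3 and Cxcr6 windows held 0 matches to any of the 4 motifs. Over 32851 promoter windows of this length, 2.98% held the response element, 7.02% the gamma-activated site, 4.11% the NF-kB form and 1.12% the T-box site. No matches overlapped. A match is a description of letters, not evidence of binding.

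Library totals ran from 16545394 to 17217035 expected counts. By summed marker transcripts, a pair of tumors stood apart. In anti-PD-1 tumor 1 the 8 skeletal muscle markers summed to 596 FPKM (a level corrected for gene length and library size), against 12.1 to 63.9 in the other 11. In CK tumor 3 the 4 neutrophil markers summed to 409 FPKM, against 5.93 to 32.4 elsewhere. Results are therefore also given without anti-PD-1 tumor 1 and CK tumor 3, a choice made after seeing the data. By mean log2 CPM of the 4 keratinocyte markers, PB-020 tumor 3 (4.16) and combination tumor 2 (4.64) were also high, against 0.53 to 2.67 elsewhere. Those tumors were kept in the fits without the outlying pair. Of 5 epithelial markers, 1 passed the filter, and their sum stayed between 2.19 and 4.29 FPKM in all 12 tumors, so under the adenocarcinoma label these defining transcripts were nearly absent. Whole tumors were sequenced, and fewer cells of a type and less RNA per cell cannot be told apart in any result given here.

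Cxcl9 was higher in every antibody-treated tumor than in every tumor without the antibody. In CK it measured 38.7, 16.4 and 36.0 FPKM in tumors 1, 2 and 3, and in the PB-020 group 39.8, 24.9 and 44.9 FPKM. In the anti-PD-1 group it measured 114, 62.1 and 80.8 FPKM, and in the combination group 102, 127 and 114 FPKM. The group means ± SD (n = 3) were 30.3 ± 12.2, 36.5 ± 10.4, 85.5 ± 26.1 and 115 ± 12.3 FPKM, in that order. The first 2 groups overlapped each other, as did the last 2, and CK tumor 2 was the lowest of the 12. Cxcl9 stood behind 16.5% of all genes in the table by mean FPKM in CK and behind 3.64% in the combination group.

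Cxcl10 was the most abundant of the 5 genes in every tumor. It measured 66.7, 34.9 and 123 FPKM in CK and 94.4, 54.6 and 101 FPKM in the PB-020 group. In the anti-PD-1 group the values were 199, 156 and 192 FPKM, and in the combination group 187, 157 and 147 FPKM. All 6 tumors with the antibody lay above all 6 without it. The highest value without the antibody came from CK tumor 3, the tumor with neutrophil transcripts, and the lowest from CK tumor 2, which gave CK a 3.54-fold range. Mean levels ± SD (n = 3) were 75.0 ± 44.9 in CK, 83.5 ± 25.2 with PB-020, 182 ± 23.0 with anti-PD-1 and 164 ± 20.9 FPKM with both.

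Cxcl16 had the narrowest range of the 5 over the 12 tumors. Its level was 29.7, 28.6 and 39.6 FPKM in CK, 30.4, 26.8 and 31.4 FPKM with PB-020, 52.9, 35.4 and 41.6 FPKM with anti-PD-1 and 44.4, 49.6 and 44.3 FPKM with both. The combination tumors all exceeded the 6 tumors without the antibody, whereas anti-PD-1 tumor 2 lay below CK tumor 3. The means ± SD (n = 3) were 32.6 ± 6.04, 29.5 ± 2.45, 43.3 ± 8.86 and 46.1 ± 3.01 FPKM.

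Cxcr3 was the rarest of the 5. It measured 0.40, 0.40 and 0.53 FPKM in CK and 0.53, 0.73 and 0.57 FPKM with PB-020. In the anti-PD-1 group it reached 2.14 FPKM in tumor 1 but 0.61 FPKM in each of tumors 2 and 3, both below PB-020 tumor 2. In the combination group it measured 1.19, 1.86 and 1.01 FPKM, above all 6 tumors without the antibody. These levels rested on few reads, 10 to 18 expected counts per tumor without the antibody and 15 to 53 with it, so counting error weighs more here than for the other 4 genes. The means ± SD (n = 3) were 0.443 ± 0.0751, 0.610 ± 0.106, 1.12 ± 0.883 and 1.35 ± 0.448 FPKM.

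Cxcr6 measured 1.5, 0.91 and 2.54 FPKM in CK, 1.36, 1.63 and 2.20 FPKM with PB-020, 7.87, 3.28 and 2.99 FPKM with anti-PD-1 and 3.56, 6.60 and 5.41 FPKM with both. All 6 tumors with the antibody lay above all 6 without it, the closest being anti-PD-1 tumor 3 and CK tumor 3. The highest value was again that of anti-PD-1 tumor 1, the tumor with muscle transcripts. Mean levels ± SD (n = 3) were 1.65 ± 0.825, 1.73 ± 0.429, 4.71 ± 2.74 and 5.19 ± 1.53 FPKM.

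**Figure D1:**
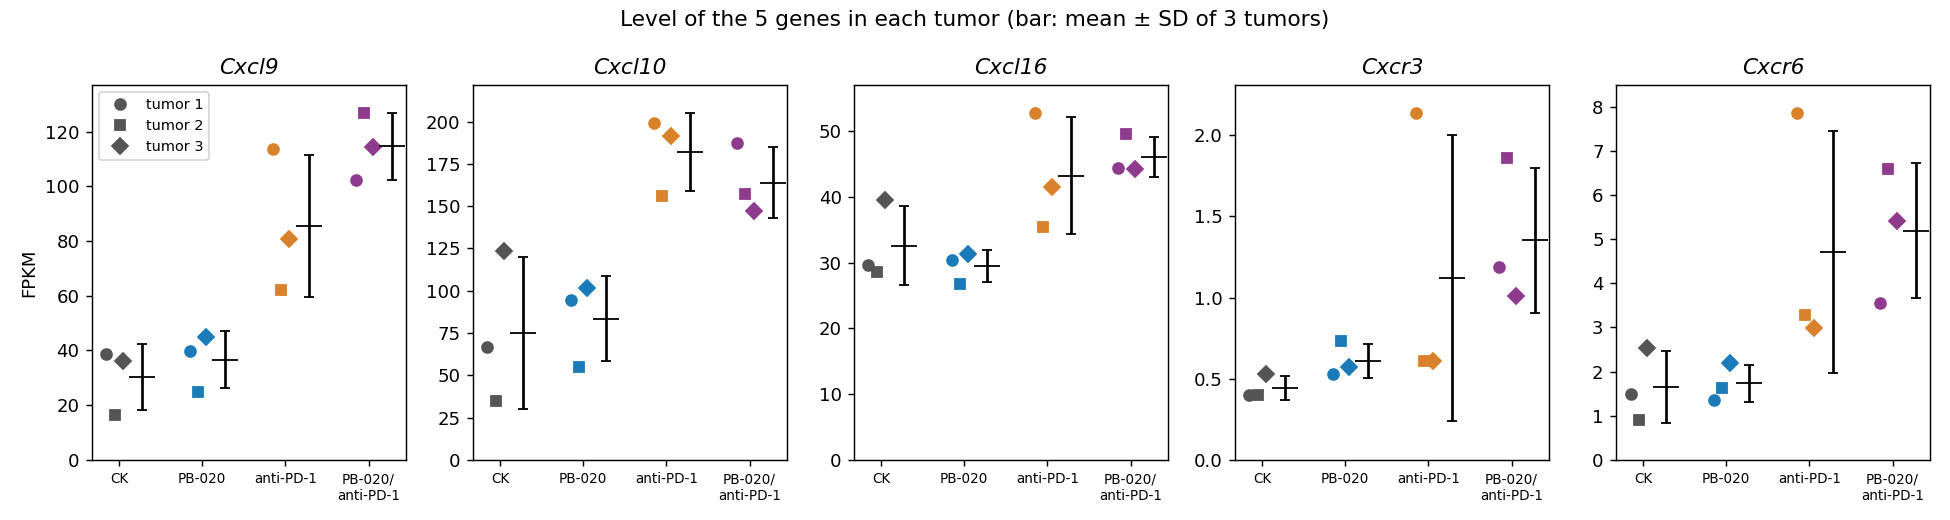
FPKM of each gene (linear axes from 0, one panel per gene) in the 12 tumors, by group, with symbols for tumors 1, 2 and 3 and black bars for the mean ± SD of 3 tumors. Cxcl9, Cxcl10 and Cxcr6 are higher in all 6 antibody-treated tumors than in the other 6, while Cxcl16 and Cxcr3 overlap through anti-PD-1 tumors.

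Per length, Cxcl10 was the highest, Cxcr3 the lowest and Cxcr6 the next lowest in each of the 12 tumors. Cxcl9 and Cxcl16 overlapped in CK and in the PB-020 group, and did not overlap in the 2 groups with the antibody, where Cxcl9 was the higher. The ratio of Cxcl9 to Cxcl16 in FPKM was 0.572 to 1.43 in the tumors without the antibody and 1.76 to 2.58 in those with it. The ratio of Cxcl9 to Cxcl10 stayed below 1 in all 12 tumors, at 0.546 to 0.808 in the combination group and 0.292 to 0.579 in the other groups. On the receptor side of the second pair, Cxcl16 exceeded Cxcr6 by 14.3 to 31.4 times without the antibody and by 6.72 to 13.9 times with it. These ratios were chosen after the values were seen and were not tested.

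Anti-PD-1 raised all 5 genes when its effect was averaged over tumors without and with PB-020 (6 tumors against 6). By edgeR's quasi-likelihood test with Benjamini-Hochberg adjustment over 13563 genes, 5 of 5 passed an adjusted p of 0.05 in the upward direction, where 11.8% of all genes tested were raised. The log2 change was 1.58 for Cxcl9 (SE 0.25, adjusted p = 0.00395), 1.14 for Cxcl10 (SE 0.29, adjusted p = 0.0235) and 0.56 for Cxcl16 (SE 0.11, adjusted p = 0.00444). Among the receptors, Cxcr3 changed by 1.24 (SE 0.33, adjusted p = 0.0178) and Cxcr6 by 1.56 (SE 0.32, adjusted p = 0.00669). In linear terms Cxcl9 was 2.99-fold, Cxcr6 2.94-fold, Cxcr3 2.37-fold, Cxcl10 2.20-fold and Cxcl16 1.48-fold higher with the antibody. The median over the 5 genes was 1.24 on the log2 scale, against 0.00 over all genes tested. Complete separation of the 6 antibody tumors above the other 6, in FPKM, was seen for 3 of the 5 genes (Cxcl9, Cxcl10, Cxcr6) and for 3.54% of genes tested. At a fold over 1.5 with an unadjusted p under 0.05, 5.18% of genes were raised, as were 4 of the 5, all but Cxcl16.

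The averaged effect held for 4 of the 5 genes in every fit that left out 1 tumor. Cxcl10 was no longer called without CK tumor 1 (adjusted p = 0.0519), anti-PD-1 tumor 3 (0.0521) or combination tumor 1 (0.0519) by edgeR. Without anti-PD-1 tumor 1 the Cxcr3 change fell to 0.81 on the log2 scale (edgeR adjusted p = 0.0471). With that tumor and CK tumor 3 both left out, all 5 genes were still called, at 1.53 for Cxcl9, 1.39 for Cxcl10, 0.56 for Cxcl16, 0.89 for Cxcr3 and 1.49 for Cxcr6 on the log2 scale, where 11.3% of genes were raised.

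Set against CK, the antibody alone moved the 5 genes in the same direction, but 1 of them passed the adjusted threshold. Cxcl9 rose 2.85-fold (log2 change 1.51, SE 0.36, edgeR adjusted p = 0.0395), where 4.18% of genes were raised. For the others the log2 changes were 1.31 for Cxcl10 (SE 0.41, edgeR adjusted p = 0.0844), 0.47 for Cxcl16 (SE 0.15, 0.0734), 1.34 for Cxcr3 (SE 0.48, 0.0973) and 1.53 for Cxcr6 (SE 0.45, 0.0588). Their 95% confidence intervals all lay above 0. In FPKM, 4 of the 5 genes (all but Cxcl16) had every anti-PD-1 tumor above every CK tumor, as did 11.8% of genes tested, and 4 of the 5 passed a fold over 1.5 with an unadjusted p under 0.05, as did 4.5% of genes in the upward direction.

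The single call in this comparison was not firm. Cxcl9 was called in 3 of the 12 fits that left out 1 tumor, namely those without PB-020 tumor 2 (edgeR adjusted p = 0.0361), PB-020 tumor 3 (0.0496) or anti-PD-1 tumor 2 (0.0275), and its adjusted p was 0.133 when only the 6 tumors of these groups were fitted and 0.157 without both outlying tumors. Without anti-PD-1 tumor 1 alone the Cxcr3 change fell from 1.34 to 0.48 and that of Cxcr6 from 1.53 to 0.96. Without CK tumor 3, where 2.46% of genes were raised, Cxcl10 (log2 change 1.85, edgeR adjusted p = 0.029), Cxcl16 (0.63, 0.0345) and Cxcr6 (1.97, 0.0476) were called, and Cxcl9 was not (1.64, 0.0727).

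The combination against CK gave the largest change of Cxcl9 among the 8 contrasts, and 4 of the 5 genes were called raised, where 8.35% of genes were. Cxcl9 rose 3.82-fold (log2 change 1.94, SE 0.36, edgeR adjusted p = 0.0104), Cxcr6 3.19-fold (1.67, SE 0.45, 0.0279), Cxcr3 3.06-fold (1.61, SE 0.48, 0.0337) and Cxcl16 1.46-fold (0.54, SE 0.15, 0.0302). Cxcl10 was 2.21-fold higher without passing the threshold (1.15, SE 0.41, edgeR adjusted p = 0.0857), and CK tumor 3 bore on that value, since without it the log2 change was 1.70 and the adjusted p 0.0202. All 5 genes had every combination tumor above every CK tumor, as did 17.9% of genes tested. At a fold over 1.5 with an unadjusted p under 0.05, 4 of the 5 passed (all but Cxcl16) and 4.95% of genes did in that direction.

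Cxcl9 was called here in all 12 fits that left out 1 tumor. Cxcl16 lost its call without CK tumor 1 or 2 or any of the combination tumors (edgeR adjusted p up to 0.112), Cxcr3 without any of the CK tumors or combination tumor 1 or 2 (up to 0.126), and Cxcr6 without CK tumor 1 or 2 or combination tumor 2 or 3 (up to 0.0982). With anti-PD-1 tumor 1 and CK tumor 3 left out together, 5 of 5 were called, where 1501 of 13620 genes (11%) were raised.

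Against PB-020 alone, the combination raised Cxcl9 by 1.65 on the log2 scale (SE 0.36, edgeR adjusted p = 0.0484) and Cxcl16 by 0.65 (SE 0.15, 0.0452), where 1.25% of genes were raised. The values for the other genes were 0.97 for Cxcl10 (SE 0.41, edgeR adjusted p = 0.203), 1.15 for Cxcr3 (SE 0.46, 0.165) and 1.58 for Cxcr6 (SE 0.44, 0.0748). All 5 genes had every combination tumor above every PB-020 tumor, against 14.5% of genes, and all 5 passed a fold over 1.5 with an unadjusted p under 0.05, against 3.89% of genes. Cxcl9 kept its call without CK tumor 2 or anti-PD-1 tumor 1 or 2, and Cxcl16 without those or CK tumor 3, but both lost it on leaving out any other tumor (edgeR adjusted p up to 0.165 and 0.151). Without anti-PD-1 tumor 1, Cxcr3 and Cxcr6 were called as well (edgeR adjusted p = 0.0366 and 0.0154), where 4.41% of genes were raised. The comparisons against CK share the CK tumors, and the combination tumors enter several of them, so their values are not independent.

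**Figure D2:**
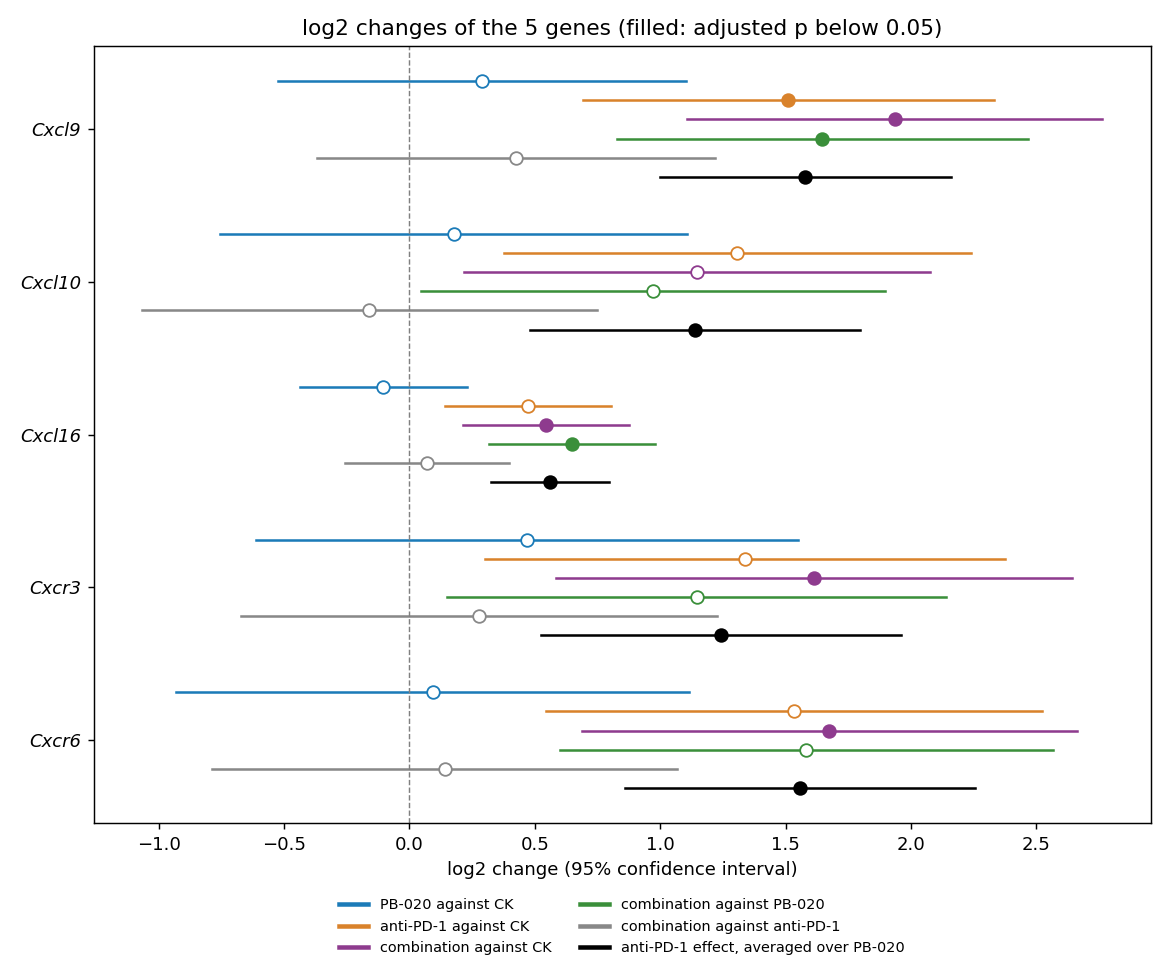
log2 change with its 95% confidence interval for each gene in 6 comparisons, with filled circles for an edgeR adjusted p below 0.05. The 4 comparisons that add the antibody lie to the right of 0 for all 5 genes, and the intervals of PB-020 against CK and of the combination against anti-PD-1 span 0.

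PB-020 changed none of the 5 genes past the threshold, with or without the antibody. Against CK, 0 of 13563 genes were called for PB-020 (0%), with 741 at an unadjusted p under 0.05 and 6 called by DESeq2, and 0 of the 5 genes were among those at an unadjusted p under 0.05. The log2 changes with 95% confidence intervals were 0.29 (−0.53 to 1.10) for Cxcl9, 0.18 (−0.75 to 1.11) for Cxcl10, −0.10 (−0.44 to 0.23) for Cxcl16, 0.47 (−0.61 to 1.55) for Cxcr3 and 0.09 (−0.93 to 1.12) for Cxcr6. Apart from that of Cxcl16, these intervals reach past a doubling.

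Adding PB-020 to the antibody gave log2 changes of 0.42 (−0.37 to 1.22) for Cxcl9, −0.16 (−1.07 to 0.75) for Cxcl10, 0.07 (−0.26 to 0.40) for Cxcl16, 0.28 (−0.67 to 1.23) for Cxcr3 and 0.14 (−0.79 to 1.07) for Cxcr6. Of all genes, 0% were called by edgeR (984 at an unadjusted p under 0.05, and 1 gene called by DESeq2). Averaged over both backgrounds the PB-020 effect on Cxcl9 was 0.36 (−0.21 to 0.93) and on Cxcr3 0.37 (−0.35 to 1.09), with 0% of genes called (1475 at an unadjusted p under 0.05, 49 called by DESeq2). The interaction, which asks whether the antibody effect differed in the presence of PB-020, ran from −0.34 (−1.64 to 0.96) for Cxcl10 to 0.17 (−0.29 to 0.64) for Cxcl16, with 0% of genes called (310 at an unadjusted p under 0.05, 0 called by DESeq2). The higher number of calls for the combination than for the antibody alone, each set against CK, is thus not shown to be a difference between these groups.

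Upstream of the ligands stand interferon gamma and TNF with their signaling proteins. Of 10 such genes tested, 3 rose and 0 fell in the averaged antibody effect, where 11.8% of all genes tested rose. The median log2 change of the 10 was 0.13. Ifng, the cytokine itself, rose by 1.73 (SE 0.31, edgeR adjusted p = 0.00257), and measured 0.72 to 0.82 FPKM in CK, 0.84 to 1.84 FPKM with PB-020, 1.5 to 5.36 FPKM with anti-PD-1 and 2.03 to 3.91 FPKM with both. Every PB-020 tumor thus lay above every CK tumor for Ifng, narrowly (0.84 against 0.82 FPKM), as for 6.19% of genes tested. The log2 change for PB-020 against CK did not pass (0.73, SE 0.47, edgeR adjusted p = 0.88). Irf1, a transcription factor induced by interferons, rose by 0.79 (SE 0.13, 0.00287) and Ifngr2, a receptor subunit, by 0.18 (SE 0.06, 0.03). Jak1, a kinase of the receptor, was at −0.10 (SE 0.04, edgeR adjusted p = 0.107). Ifngr1, Jak2, Tnf, Tnfrsf1a, Nfkb1 and Rela did not pass either, at log2 changes of −0.05 to 0.33. The share of all genes lowered in this effect was 12.3%.

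On the receptor side, genes of the effector lymphocyte program that accompanies Cxcr3 and Cxcr6, with cytokines that feed it, were mostly raised. Of 10 tested, 9 were raised and 0 lowered, with a median of 0.83, where 11.8% of all genes were raised. Runx3, a transcription factor of cytotoxic T cells, rose by 0.74 (SE 0.11, edgeR adjusted p = 0.000915), Tbx21, which encodes T-bet, by 1.77 (SE 0.30, 0.00176), Il12rb2, an interleukin 12 receptor chain, by 1.36 (SE 0.25, 0.00253) and Il18r1, an interleukin 18 receptor chain, by 1.62 (SE 0.31, 0.00397). The list also holds Il12b and Il15, cytokine genes used mainly by dendritic cells and macrophages, which rose by 1.26 (SE 0.29, edgeR adjusted p = 0.00785) and 0.39 (SE 0.11, 0.0246). Eomes, a T-box factor of lymphocytes, did not pass (−0.11, SE 0.10, edgeR adjusted p = 0.451). Zfp683 was not analysed here.

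Downstream of the receptors, of 20 genes for G proteins, arrestins, kinases and adhesion, 9 rose and 0 fell, where 11.8% of all genes rose. Their median was 0.26. Grk3 and Grk2, kinases that desensitize chemokine receptors, rose by 0.74 (SE 0.16, edgeR adjusted p = 0.00535) and 0.21 (SE 0.05, 0.0118). Plcb2, a phospholipase activated by G protein subunits, rose by 0.67 (SE 0.15, 0.00881), and Itgal, a chain of the integrin LFA-1, by 0.94 (SE 0.20, 0.00966).

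Proteases and atypical receptors that act on chemokines, not all of them on these ligands, were represented by 6 genes. Of these 1 rose and 0 fell (median 0.07), a share near the 11.8% of all genes raised. Dpp4, a protease that truncates CXCL9 and CXCL10, rose by 0.83 (SE 0.25, edgeR adjusted p = 0.0286). Adam10 and Adam17, which release CXCL16 from membranes, were at 0.06 (SE 0.04, adjusted p = 0.303) and −0.10 (SE 0.05, 0.193). Ackr1, an atypical receptor that binds chemokines, was at 1.32 with a wide error (SE 0.59, adjusted p = 0.115). Pf4, which encodes another ligand reported for CXCR3, was at −0.33 (SE 0.23, adjusted p = 0.335), and Cxcl11 was not analysed here.

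Among 10 other CXC chemokine and receptor genes tested, 1 rose and 0 fell, with a median of −0.70, again a share near that of all genes. Cxcl14, a chemokine of epithelia and stroma, rose by 0.68 (SE 0.17, edgeR adjusted p = 0.0162). Ppbp, a platelet chemokine gene, was at −1.60 (SE 0.55, adjusted p = 0.0568), Cxcl12 at 0.57 (SE 0.42, 0.357) and Cxcl2, which recruits neutrophils, at −1.39 (SE 1.02, 0.359). Cxcl2 ranged from 2.36 to 111 FPKM within CK. Without CK tumor 3 the median of the 10 genes was 0.66 in place of −0.70, with 1 again called raised. With CK tumor 3 and anti-PD-1 tumor 1 both left out, the genes raised were 5 of 10 for the interferon gamma and TNF list, 8 of 10 for the lymphocyte program and its cytokines, 10 of 20 downstream of the receptors, 1 of 10 for the other CXC genes and 0 of 6 for the proteases and scavengers, where Dpp4 was no longer called. In that fit 11.3% of all genes tested were raised.

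The list counts moved when single tumors were left out. Of the 20 genes downstream of the receptors, 5 to 10 were raised in the averaged effect, the fewest without CK tumor 2 or PB-020 tumor 1. For the interferon gamma and TNF list 2 to 5 of 10 were raised, the most without CK tumor 3, and for the lymphocyte program and its cytokines 7 to 9 of 10. Dpp4 was not called, so that 0 of the 6 proteases and scavengers were raised, without CK tumor 2 or 3, PB-020 tumor 1 or combination tumor 1 or 2, and 2 of the 6 were raised without anti-PD-1 tumor 2.

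**Figure D3:**
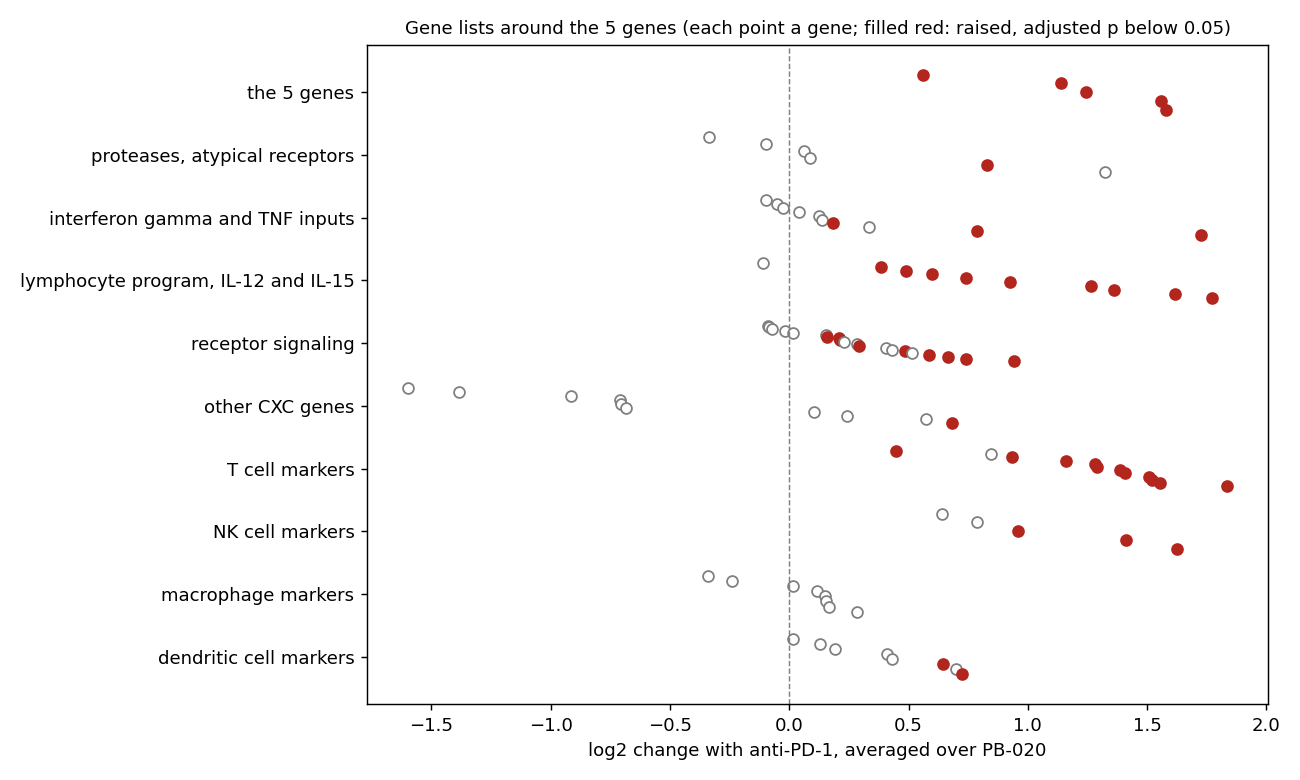
log2 change with anti-PD-1, averaged over PB-020, for every tested gene (points) of 10 lists, with filled red points for genes raised at an edgeR adjusted p below 0.05 and open grey points for genes not called. The lymphocyte program with IL-12 and IL-15 genes (9 of 10) and T cell markers (11 of 12) are mostly filled, and the macrophage markers (0 of 8) are all open.

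T cell markers moved with the 5 genes: 11 of 12 rose in the averaged antibody effect (median 1.34), where 11.8% of all genes tested rose. Their summed level was 37.9 to 52.2 FPKM in CK, 50.5 to 58.4 with PB-020, 66.0 to 130 with anti-PD-1 and 73.8 to 107 with both. Of 5 NK cell markers 3 rose, with sums of 2.82 to 5.83 FPKM without and 5.34 to 14.2 FPKM with the antibody. For the antibody alone against CK, Klrk1 and Klre1 were called. Ncr1 (log2 change 0.16), Klrb1c (0.42) and Klri2 (0.87) were not. For the combination against PB-020, Ncr1 (1.42), Klrb1c (0.86) and Klri2 (1.05) were again not called. In the averaged effect 0 of 8 macrophage markers passed, with a median of 0.13 and sums of 724 to 999 FPKM without and 727 to 1340 FPKM with the antibody. Of 8 dendritic cell markers, Xcr1 and Clec9a, both of cross-presenting dendritic cells, rose, and the sums were 83.6 to 98.1 and 86.1 to 102 FPKM. These sums mostly follow Fscn1, by far the most abundant (mean log2 CPM 7.74 in CK, against 3.35 for Zbtb46, the next). The mean log2 CPM of the 8 markers, relative to CK, was −0.10 to 0.14 in CK and −0.13 to 0.32 with PB-020. It was 0.01 to 0.76 with anti-PD-1 and 0.33 to 0.64 with both. Of 4 fibroblast markers 2 fell (Dcn and Pdgfra), of 4 keratinocyte markers 1 rose (Krt14), and 0 of 4 endothelial markers passed. Among all genes tested, 11.8% rose and 12.3% fell. The other fibroblast markers, Col1a1 and Col1a2, were not called and pointed upward. Their log2 changes were 0.85 (SE 0.62) and 0.37 (SE 0.33) for anti-PD-1 against CK. For the combination against PB-020 they were 0.90 (SE 0.62) and 0.45 (SE 0.33). The other keratinocyte markers did not follow Krt14. For anti-PD-1 against CK, Krt5 was at −2.21 (SE 2.57), Krt1 at −1.57 (SE 2.56) and Krt10 at 0.19 (SE 0.77), none of them called. In CK their mean log2 CPM was −0.29, −0.87 and 1.26, against 6.97 for Krt14. The 5 erythroid markers fell, from 449 to 1560 FPKM without the antibody to 101 to 380 FPKM with it. None of the T cell, NK cell, macrophage or dendritic cell markers was at 0 in all tumors of any group. With anti-PD-1 tumor 1 and CK tumor 3 left out, the counts raised were 11 of 12 for T cell, 3 of 5 for NK cell and 1 of 8 for dendritic cell markers, and 2 of 8 macrophage markers fell. When 1 tumor was left out, 11 to 12 of the 12 T cell markers and 2 to 4 of the 5 NK cell markers were raised. Dendritic cell markers raised were 3 of 8 without anti-PD-1 tumor 3 and 0 or 1 without any other tumor, and 3 of 8 macrophage markers fell without anti-PD-1 tumor 1, against 0 without any other. The part of these cell types in the changes of the 5 genes was not tested.

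Relative to the macrophage markers of the same tumor, the ligands were higher with the antibody. On the log2 CPM scale, with the CK mean at 0, Cxcl9 minus the mean of the macrophage markers was −0.71 to 0.54 in CK, 0.07 to 0.78 with PB-020, 1.44 to 1.91 with anti-PD-1 and 2.07 to 2.16 with both. For Cxcl10 the antibody groups spanned 1.04 to 1.93 and 1.23 to 1.71, above the −0.84 to 0.73 of the other groups. For Cxcl16 they spanned 0.20 to 0.82 and 0.59 to 0.70, above the −0.13 to 0.12 of the other groups. Set against the dendritic cell markers, Cxcl9 remained apart in the antibody groups (0.93 to 1.69, against −0.75 to 0.64). Cxcl10 did not, at 0.84 to 1.56 with anti-PD-1 and 0.65 to 1.09 with both, against −0.88 to 0.99 in CK, with CK tumor 3 the highest, and −0.12 to 0.59 with PB-020. Cxcl16 in the combination group (0.01 to 0.19) likewise lay within the range of CK (−0.21 to 0.39). Set against Adgre1 alone, a macrophage surface receptor, Cxcl9 and Cxcl10 stayed apart, but Cxcl16 in anti-PD-1 tumor 1 (0.09) lay just below CK tumor 1 (0.10).

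Relative to the T cell markers of the same tumor, neither receptor separated the antibody-treated tumors from all the others. Cxcr3 minus the mean of the T cell markers was −0.21 to 0.11 in CK, −0.16 to 0.35 with PB-020, −0.44 to −0.02 with anti-PD-1 and −0.37 to 0.22 with both, so the groups overlapped. Cxcr6 minus the same mean was −0.47 to 0.57 in CK, −0.44 to 0.05 with PB-020, 0.11 to 0.32 with anti-PD-1 and 0.12 to 0.40 with both. The antibody groups thus lay inside the range of CK, whose upper end was CK tumor 3, but above the other 2 CK tumors and all 3 PB-020 tumors. That order depended on the markers. Against Cd3e alone, Cxcr6 was −0.18 to 0.39 with anti-PD-1 and −0.28 to 0.12 with both, overlapping PB-020 (−0.56 to 0.06). Against the NK cell markers it was 0.42 to 0.90 and 0.17 to 0.64, again overlapping PB-020 (−0.265 to 0.69). These differences are descriptions and were not tested.

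**Figure D4:**
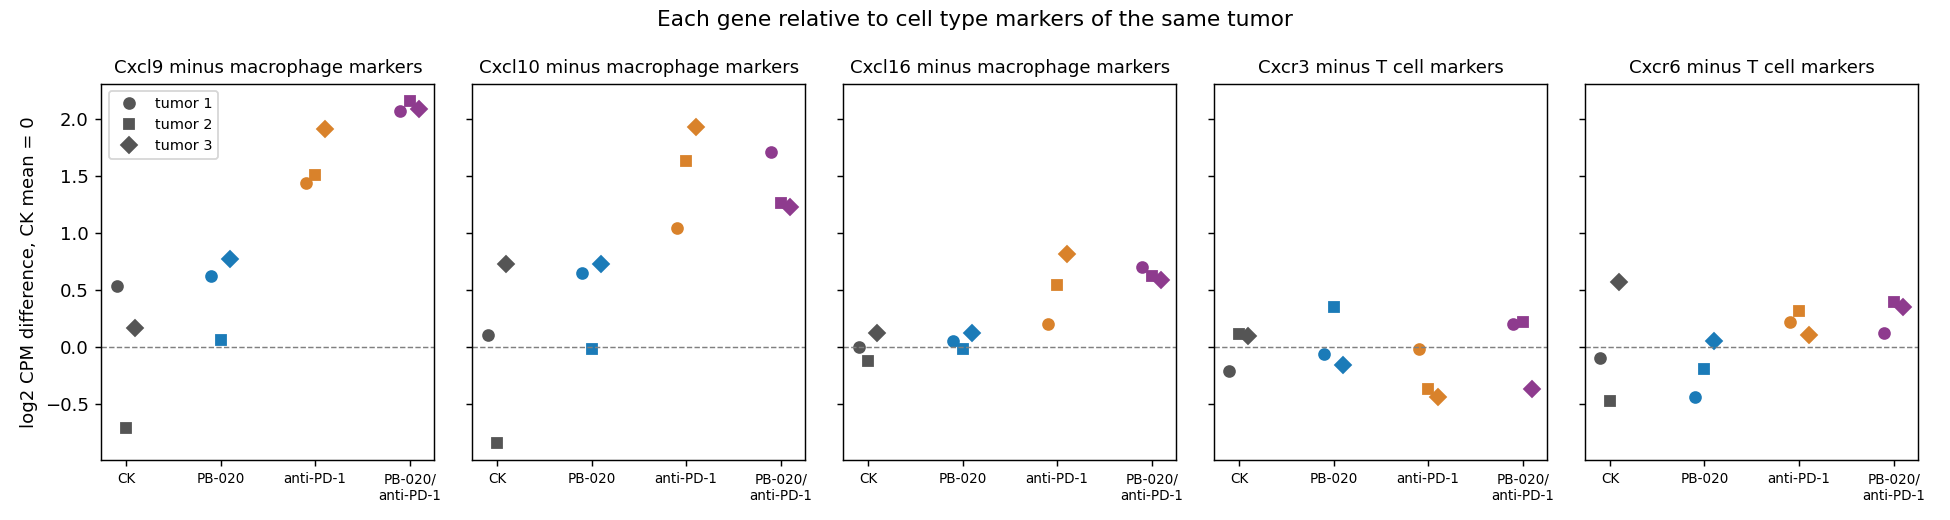
log2 CPM of each gene minus the mean log2 CPM of a marker list in the same tumor, with the CK mean set to 0 (dashed line) and one symbol per tumor. Cxcl9, Cxcl10 and Cxcl16 lie above the macrophage markers in all 6 antibody-treated tumors relative to the other 6, whereas relative to T cell markers the Cxcr3 groups overlap and the antibody-treated tumors lie for Cxcr6 within the range of CK but above the PB-020 tumors.

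The genes whose log2 CPM followed each of the 5 most closely over the 12 tumors were named by Pearson's r, a description that includes the shared difference between groups. For Cxcl9 they were Ubd, a ubiquitin-like modifier induced by interferon gamma (r = 0.986), Psme2, a proteasome activator subunit (0.981), and Gbp2, a guanylate-binding protein (0.981). For Cxcl10 they were Gbp3 (0.983), the class I-like gene H2-T22 (0.983) and Zbp1, a sensor of nucleic acids (0.979). For Cxcl16 they were Havcr2, which encodes the checkpoint receptor TIM-3 (0.983), Tbx21 (0.975) and Socs1, an inhibitor of cytokine signaling (0.975).

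For Cxcr3 the closest were Ccl11, the chemokine eotaxin (r = 0.975), Zfp518a (0.974) and Ptger2, a prostaglandin E2 receptor (0.958), and for Cxcr6 Clec4n, the lectin Dectin-2 of myeloid cells (0.978), Cd8a (0.975) and Ptprc, the leukocyte antigen CD45 (0.970). With the group means taken out, r over the 12 tumors was 0.905 to 0.976 for these 15 genes. All of these values include anti-PD-1 tumor 1, which had the highest Cxcr3 and Cxcr6. A high value with group means out can occur without a shared difference between groups. Pf4 and Cxcr6, for example, had 0.985 with group means out but 0.103 without that step. These lists depended on the measure. By Spearman's rank correlation, other genes came closest to Cxcr3. For the other members only Ubd, Zbp1, Socs1 and Clec4n stayed among the closest 3. With group means out, only Gbp3 and H2-T22, both for Cxcl10, stayed. Among the 5 genes themselves, r was highest for Cxcl16 and Cxcr6 (0.939, or 0.830 with group means taken out) and lowest for Cxcl10 and Cxcr3 (0.636 and 0.135). Cxcl9 and Cxcl10, neighbors on the chromosome, had r = 0.907 and 0.792. All points of a correlation share their libraries.

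Apart from Cxcl9 and Cxcl10 beside each other, tested genes within 50000 bases of the 5 had smaller log2 changes in the averaged antibody effect than the gene they neighbor. Sdad1, 11307 bases from Cxcl9, was at 0.04 (SE 0.05, edgeR adjusted p = 0.597), and Naaa, 43150 bases away, rose by 0.18 (SE 0.05, 0.0245). Near Cxcl16, Arrb2 rose by 0.21 (SE 0.05, 0.0132), while Med11 (0.07) and Pelp1 (0.15) did not pass. Ogt, 47184 bases from Cxcr3, rose by 0.29 (SE 0.05, 0.00266). Ccr9, a chemokine receptor gene 23020 bases from Cxcr6, rose by 1.01 (SE 0.28, 0.0192) at levels of 0.08 to 0.34 FPKM, and Xcr1, 40561 bases away, by 0.72 (SE 0.23, 0.0381).

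A gene on the opposite strand overlaps 3 of the 5, and whether reads were counted by strand is not stated, so shared bases cannot be assigned. Cxcl10 lies within Art3, with 133 of its 2252 exon bases shared, Cxcl16 shares 552 of 3021 with Zmynd15, and Cxcr6 lies within Fyco1 with 0 of 1931 shared. None of these partners passed the test, at −0.11 for Art3 (SE 0.22, edgeR adjusted p = 0.757), 0.30 for Zmynd15 (SE 0.12, 0.0885) and 0.13 for Fyco1 (SE 0.06, 0.107).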

How the data were processed

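RNA from 12 MC38 tumors, 3 in each of 4 groups named by the labels, was sequenced by the study on an Illumina HiSeq X instrument as read pairs of 150 bases. The authors aligned reads with Bowtie2 at default settings and quantified them with RSEM. As reference mm10 or hg19 is named, and the submitters' processing notes add HISAT and GRCm38.p6. Annotation and versions are not given in the sources used here. The deposited expected counts are RSEM estimates without normalization, 91% of them whole numbers. The deposited FPKM values correct these for gene length and library size, and the deposited TPM values carry one fixed total per library. The authors' group averages were not used.

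Expected counts were rounded and analysed in R 4.3.3 with edgeR 4.0.16 (filterByExpr with a minimum count of 10, TMM, quasi-likelihood test with robust estimation, one model of 4 group means, two-sided tests). Each of 8 contrasts was adjusted by Benjamini-Hochberg over 13563 genes, and called means an adjusted p below 0.05. Changes are log2 values. Marker comparisons used log2 CPM with a prior count of 2. Depth was 16545394 to 17217035 expected counts per library, and errors cover counting and the spread between tumors. No replicates within a group were duplicate libraries (chi-square per gene 5.21 to 32.9). Pairs from different groups were not part of this check. The computation was tested on simulated data.

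The 5 genes and all lists were chosen with earlier results of these data known. A gene of the interferon gamma and TNF list is not reported here and was left out of its counts. Named were these 5, the up to 4 genes of each pathway list with the smallest p in the averaged antibody effect, and the 3 genes with the highest r for each of the 5. Eomes, the untested or unchanged members of short lists, chromosomal neighbors and overlapping genes were named after their values were seen. Of 18211 gene numbers, 18091 matched RefSeq on GRCm38.p6. Alternatives were DESeq2 1.42.0, limma 3.58.1 on log2(FPKM + 1) and log2(FPKM + 0.1), no filter, a minimum count of 50, library size alone, only the groups compared, a replicate block, each tumor left out, and a fold over 1.5 with an unadjusted p under 0.05.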

Additional observations from a re-analysis of the deposited data

How the results depend on the processing

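Of 817 recomputed log2 changes of the 5 genes, 706 kept their direction and side of the threshold, 51 fell below it, 22 passed it and 38 changed sign, all of the last in contrasts that test PB-020 or the interaction. The cause was not tested unless the setting itself (fewer tumors or genes) states it. Precision is limited by 3 tumors a group and, for Cxcr3, by its few counts. A minimum count of 50 left Cxcr3 untested.

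Genes called of the 5, anti-PD-1 against CK (1 in the report): DESeq2 gave 4, no filter 0, only the groups compared 0, a fold over 1.5 with an unadjusted p under 0.05 gave 4, and both outlying tumors left out 2. For the combination against PB-020 (2 in the report), no filter gave 1, library size alone 0, only the groups compared 4, both tumors left out 4 and the fold rule 5. Leaving out 1 tumor gave 0 to 4 for anti-PD-1 against CK, 1 to 4 for the combination against CK and 0 to 4 for the combination against PB-020. Over all genes, 4.18% were raised for anti-PD-1 against CK in the report and 4.5% by the fold rule. For the combination against PB-020 these shares were 1.25% and 3.89%, and 4.41% without anti-PD-1 tumor 1. Calls over all genes also moved with other settings, as given below, so these counts alone are not a result about the 5 genes.

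Sign changes were as follows, on the log2 scale. The Cxcr3 interaction was 0.053 by limma on log2(FPKM + 1) and on log2(FPKM + 0.1), and 0.54 without both tumors, where Cxcl16 was 0.045 for PB-020 against CK and 0.14 for the averaged PB-020 effect. By library size alone the averaged PB-020 effect on Cxcl10 was −0.0078. Leaving out 1 tumor, PB-020 against CK ranged from −0.010 to 0.51 for Cxcl9, −0.16 to 0.72 for Cxcl10, −0.20 to 0.045 for Cxcl16 and −0.20 to 0.52 for Cxcr6. The combination against anti-PD-1 ranged from −0.050 to 0.23 for Cxcl16, −0.013 to 1.14 for Cxcr3 and −0.084 to 0.72 for Cxcr6. The interaction ranged from −0.079 to 0.43 for Cxcl9, −0.87 to 0.0033 for Cxcl10, −0.48 to 0.67 for Cxcr3 and −0.37 to 0.62 for Cxcr6, and the averaged PB-020 effect from −0.16 to 0.28 for Cxcl10, −0.079 to 0.065 for Cxcl16 and −0.027 to 0.40 for Cxcr6.

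Replicate numbers did not pair tumors (r of deviations −0.21 to 0.289 over 18 pairs, 2 above 0.1). With a replicate block, by edgeR, Cxcl10 was called for the combination against CK (log2 change 1.28, adjusted p = 0.0463) and Cxcr3 was not (1.59, adjusted p = 0.0509), so 4 of the 5 were called as before.

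Over all genes, calls moved by over 1.5 times for anti-PD-1 against CK (1120, or 3 with only the groups compared) and the combination against PB-020 (455, or 1109 by DESeq2 and 1535 with only the groups compared). Of the 1120, 567 were raised, against 392 of 1035 by limma on log2(FPKM + 1). Leaving out 1 tumor gave 137 to 1905 and 0 to 1269 calls in these comparisons, and 864 or more for the combination against CK (2434).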
